A study of Homo sapiens with 9 samples.

Results

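The genes described here encode enzymes that add or remove methyl groups on histones and subunits of complexes that move nucleosomes. They were taken by name from the count files: every symbol that begins with KDM and a digit, KMT2, KMT5, SETD, ARID or SMARC, with KDM5D left out. The rule found 61 of the 26364 genes in the files, and no symbol of the KMT5 kind was among them. SETD8 is the older name of KMT5A. The 61 genes comprised 12 SWI/SNF subunits, 2 ISWI ATPases, 2 other SNF2 ATPases, 17 SET domain proteins, 18 KDM demethylases, 7 other ARID proteins and 3 antisense RNA genes. Of these, 58 had enough counts to be tested.

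RNA was measured by strand-specific, poly(A)-selected sequencing in 9 cultures of the MDA-MB-231 line, which comes from a human breast adenocarcinoma lacking hormone receptors and HER2 amplification. All cells carried a stably integrated pLVX lentivirus. It was empty in the vector group, and it encoded MEL-18 WT, the unmutated protein, or MEL-18 T334A, a mutant that cannot be phosphorylated at T334, in the others. Every group was grown in DMEM with serum for the same number of hours and held 3 libraries. The series calls the libraries biological replicates without saying whether they came from separate infections, so p-values reflect only how much these cultures varied, and an effect of a construct cannot be told apart from a difference between infected lines. In such bulk RNA, fewer cells that express a gene and less RNA per cell cannot be told apart either. MEL-18, the product of PCGF2, is a RING finger subunit of Polycomb repressive complex PRC1, which places ubiquitin on histone H2A.

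Several of the proteins act on the chromatin marks that Polycomb complexes read or write. SWI/SNF complexes use an ATPase, SMARCA2 or SMARCA4, to slide or evict nucleosomes and can displace Polycomb complexes from chromatin. COMPASS-type complexes built on KMT2 and SETD1 enzymes methylate histone H3 at lysine 4, a mark of active promoters and enhancers. The KDM6 demethylases erase the Polycomb mark on lysine 27 of H3, and KDM2B, a CpG-binding protein, brings a variant of PRC1 to CpG islands.

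Library totals ran from 31643722 to 37005302 counts, and the 61 genes took between 0.458% and 0.482% of the counts of each library. PCGF2 stood at 22.7 ± 0.88 CPM (counts scaled to a common library size after TMM scaling, given with the SD, n = 3) with the empty vector, 1286 ± 6.55 with MEL-18 WT and 1420 ± 30.9 with MEL-18 T334A. The labels call the line epithelial, and epithelial markers stood at very different levels. In the means of the vector, WT and T334A groups, the keratin gene KRT18 was at 299, 310.2 and 254 CPM, EPCAM at 7.47, 10.1 and 12.2 CPM, and the cadherin gene CDH1 at 0.0915, 0.144 and 0.0772 CPM. EPCAM rose 1.35-fold with MEL-18 WT and 1.63-fold with MEL-18 T334A, and KRT18 fell with MEL-18 T334A. The mesenchymal VIM was at 1447 ± 29.5, 1481 ± 16.5 and 1545 ± 31.4 CPM. The further markers CD44, AXL and MSN did not move together. CD44 rose with MEL-18 WT and MEL-18 T334A, by log2 fold changes of 0.13 and 0.20 against the vector. AXL fell in both (-0.11 and -0.10), and MSN rose with MEL-18 WT (0.08) and fell with MEL-18 T334A (-0.07). ESR1 and PGR were at 0.0673 CPM or less in each mean. Other markers of the same list were expressed. ERBB2, the HER2 gene, was at 63.8, 68.6 and 69.9 CPM in the vector, WT and T334A means and was called higher in both MEL-18 groups. FOXA1 was at 10.2, 11.5 and 10.6 CPM and was called higher with MEL-18 WT. GATA3 was at 6.86, 7.39 and 7.46 CPM and was not called. The markers of other cells PTPRC, CD3E, PECAM1, CDH5 and DES were below 1 CPM in the mean of each group, and the highest of these was PECAM1 at 0.951 CPM with the vector. CDH5 and PECAM1 fell in both MEL-18 groups and PTPRC fell with MEL-18 WT, and their part in the results was not tested. Replicates differed by more than sampling noise in all 9 pairs within groups, most in the pairs of MEL-18 T334A replicate 3 with replicates 1 and 2 (chi-square of 3.80 and 4.17 per degree of freedom).

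SMARCD3, which changed most among these genes in MEL-18 T334A cells, and the ISWI ATPases, which are paralogs that changed in opposite directions, are introduced here by the sequence upstream of their starts. SMARCD3, which encodes the BAF60c subunit of SWI/SNF, rose in both lines, while of the ISWI ATPases SMARCA1 rose and SMARCA5 fell. RefSeq lists 3 start sites for SMARCD3, and the gene counts do not say which was used. The 250 bases before each start are from RefSeq on GRCh38.p14, 5′ to 3′ on the strand of the gene, with each GGGCGG box, on either strand (GGGCGG or CCGCCC), in capitals:
SMARCD3 start 1, chr7:151277150-151277399, minus strand: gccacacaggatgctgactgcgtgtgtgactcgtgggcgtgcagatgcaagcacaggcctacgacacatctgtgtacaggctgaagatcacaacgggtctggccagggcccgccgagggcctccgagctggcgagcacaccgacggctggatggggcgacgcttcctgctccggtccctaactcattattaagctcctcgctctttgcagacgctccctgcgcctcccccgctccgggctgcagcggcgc
SMARCD3 start 2, chr7:151276735-151276984, minus strand: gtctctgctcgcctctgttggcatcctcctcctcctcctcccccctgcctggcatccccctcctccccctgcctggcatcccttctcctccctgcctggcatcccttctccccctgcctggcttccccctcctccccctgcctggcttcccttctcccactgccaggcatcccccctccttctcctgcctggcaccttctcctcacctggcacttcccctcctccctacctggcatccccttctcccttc
SMARCD3 start 3, chr7:151248695-151248944, minus strand: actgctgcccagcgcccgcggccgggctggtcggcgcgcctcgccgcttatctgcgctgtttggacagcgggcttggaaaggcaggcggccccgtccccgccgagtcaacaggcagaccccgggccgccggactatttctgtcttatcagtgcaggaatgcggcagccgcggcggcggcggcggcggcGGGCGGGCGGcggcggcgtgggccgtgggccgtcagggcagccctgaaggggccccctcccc
SMARCA1, chrX:129523491-129523740, minus strand: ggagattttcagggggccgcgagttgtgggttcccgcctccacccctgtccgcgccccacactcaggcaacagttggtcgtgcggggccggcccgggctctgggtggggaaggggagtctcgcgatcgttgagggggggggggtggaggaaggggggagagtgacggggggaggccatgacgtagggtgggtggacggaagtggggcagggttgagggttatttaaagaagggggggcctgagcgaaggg
SMARCA5, chr4:143513452-143513701, plus strand: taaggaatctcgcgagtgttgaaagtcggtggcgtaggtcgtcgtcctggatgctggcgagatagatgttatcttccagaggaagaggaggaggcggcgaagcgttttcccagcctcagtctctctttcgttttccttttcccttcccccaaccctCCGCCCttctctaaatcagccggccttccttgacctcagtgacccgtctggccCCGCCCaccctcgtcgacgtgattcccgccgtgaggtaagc
Start 3 of SMARCD3 held 2 overlapping GGGCGG boxes and 34 CG dinucleotides, whereas start 2 held 0 boxes and 1 CG dinucleotide. SMARCA5 held 2 boxes and 20 CG dinucleotides, and SMARCA1 held 0 boxes and 16 CG dinucleotides. RefSeq had 79 such windows for 53 of the 61 genes, of which 62.0% held a GGGCGG box, against 42.6% of all 35116 windows. The median number of CG dinucleotides was 22 in the windows of these genes and 11 in all windows. All windows were taken without regard to expression here, whereas 58 of the 61 genes passed the filter for testing, so the 2 sets are not matched. The motif was chosen after the expression values were seen, and a match is not evidence of a bound factor.

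Most of these genes changed little. With MEL-18 WT, 12 of 58 tested genes were higher than with the vector and 6 were lower, by edgeR's quasi-likelihood test at a Benjamini-Hochberg adjusted p below 0.05 over all genes tested. That is 31.0% of them, beside 28.8% of all 14738 tested genes (14.4% higher and 14.4% lower). With MEL-18 T334A, 10 were higher and 11 lower than with the vector, 36.2% beside 45.9% of all tested genes (23.4% higher, 22.5% lower). Between MEL-18 T334A and MEL-18 WT, 9 were higher and 13 lower, 37.9% beside 40.9% (21.0% higher, 20% lower). The median absolute log2 fold change was 0.05, 0.09 and 0.08 in these 3 comparisons, against 0.10, 0.14 and 0.12 over all tested genes. Changes above 1.5-fold were seen in 0, 2 and 0 of the 58 genes, where 5.82%, 8.01% and 5.09% of all tested genes changed by as much. Replicates did not overlap for 22 (13 higher, 9 lower), 26 (11, 15) and 26 (11, 15) of the 58 genes, where they did not overlap for 42.7%, 51.5% and 48.7% of all tested genes. In all, 32 of the 58 genes were called in at least 1 comparison and 26 in none. The matching share over all tested genes was not counted, so these numbers have no background beside them. Both comparisons with the vector share the same vector libraries.

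Without MEL-18 WT replicate 2, 7 genes were higher and 2 lower in MEL-18 WT than with the vector, and 5 were higher in MEL-18 T334A than in MEL-18 WT. Calls over all genes then also fell, from 28.8% to 23.1% and from 40.9% to 33.7% in these comparisons. The 6 genes lower with MEL-18 WT became 3 without empty vector replicate 1 or without empty vector replicate 3. In these fits 23.9% and 24.3% of all genes were called with MEL-18 WT. With library totals in place of TMM, the share of calls that were higher went from 66.7% to 80.0% with MEL-18 WT, from 47.6% to 61.9% with MEL-18 T334A and from 40.9% to 52.9% between the MEL-18 groups.

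**Figure D1:**
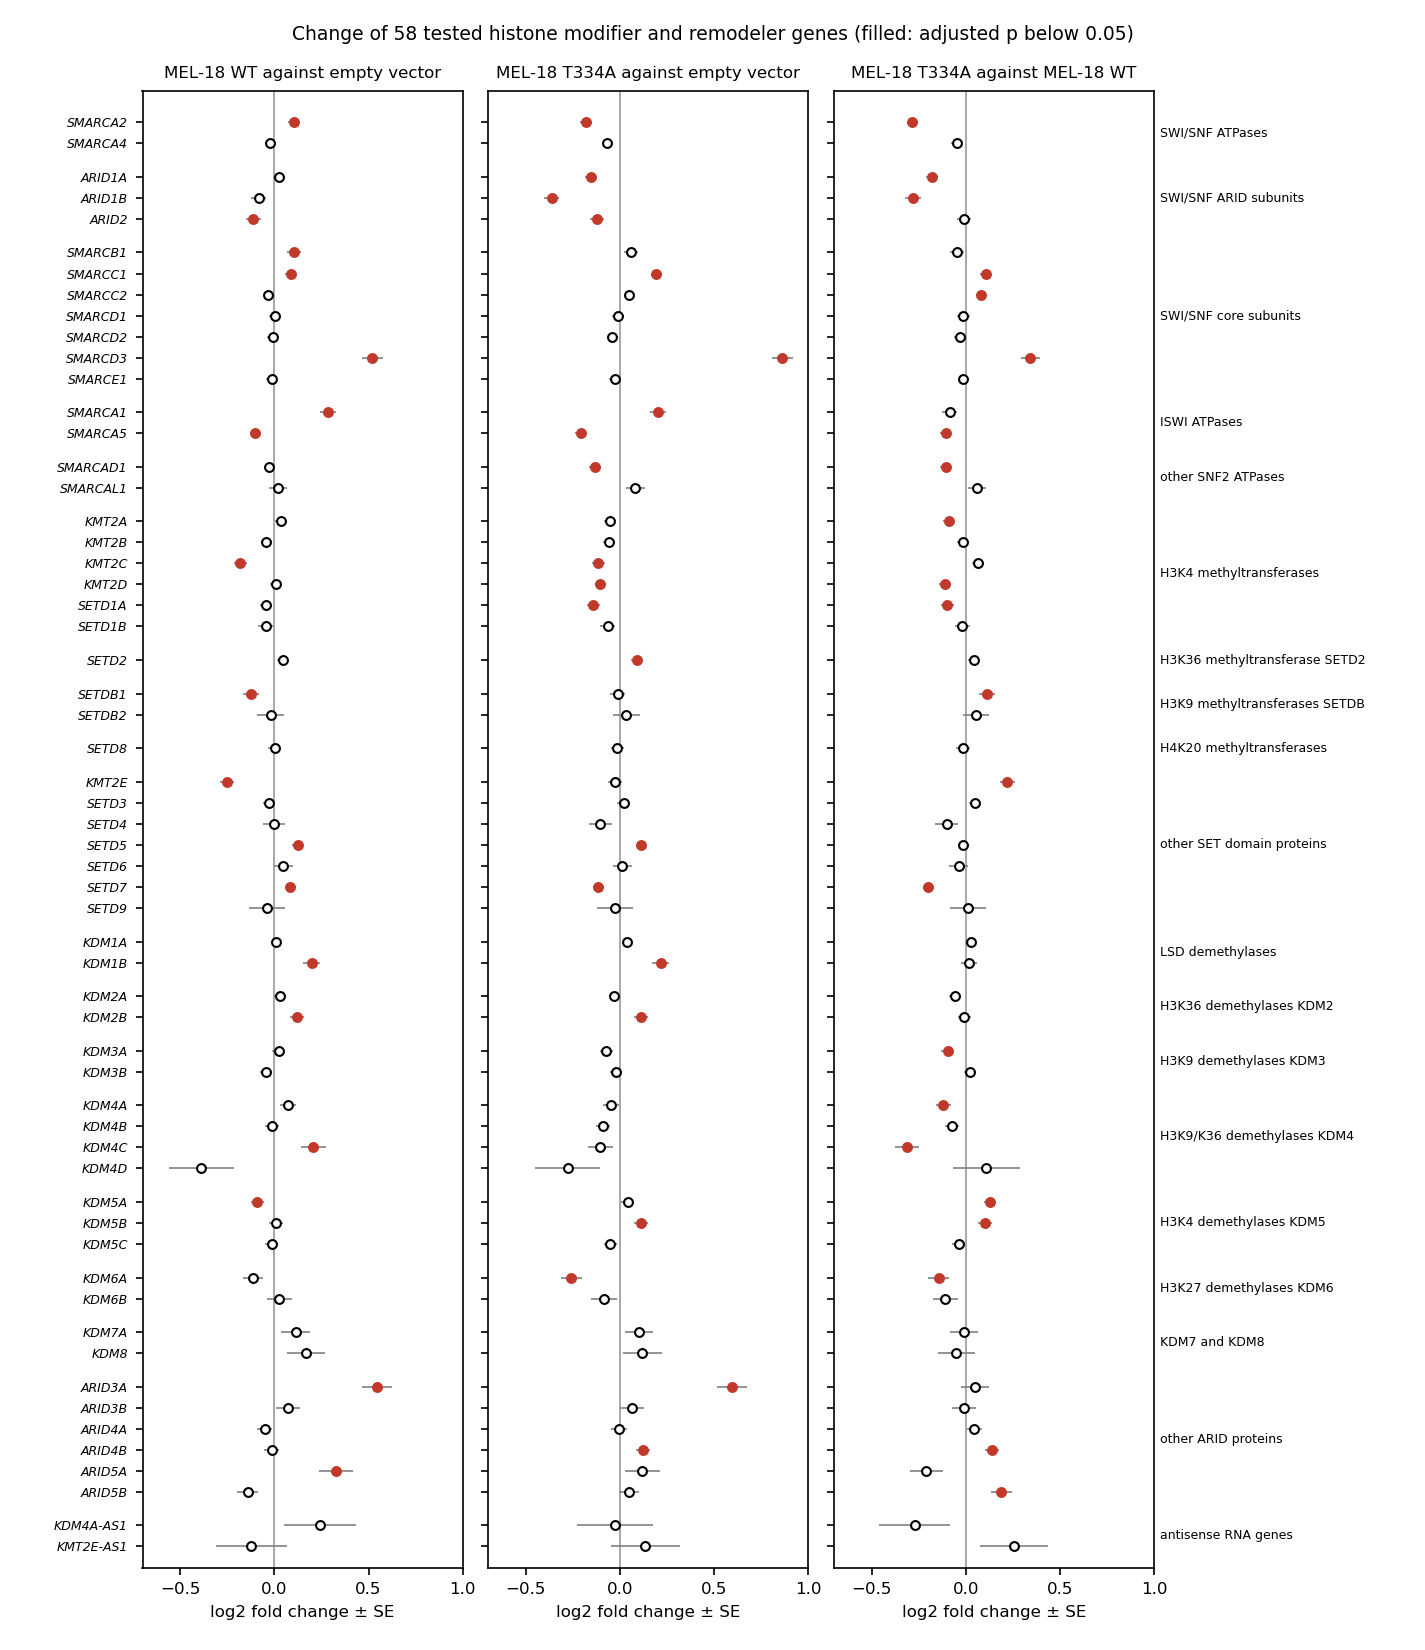
Log2 fold change with its standard error of the 58 tested genes, one gene a line and grouped by class, in the 3 comparisons. Filled points passed the test at an adjusted p below 0.05. Most points lie near 0, and SMARCD3 at 0.52 and 0.86 and ARID3A at 0.54 and 0.59 stand farthest to the right in the comparisons of MEL-18 WT and MEL-18 T334A with the vector.

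SWI/SNF complexes consist of an ATPase, core subunits shared by most forms, and subunits that set the form of the complex. Among the 7 core subunits, SMARCD3 changed by far more than the rest. It stood at 12.3, 12.7 and 11.8 CPM in the vector libraries, 18.1, 16.9 and 17.6 CPM in MEL-18 WT cells and 22.5, 21.8 and 22.5 CPM with MEL-18 T334A. The 3 groups did not overlap, with the vector lowest and MEL-18 T334A highest. The increase was 1.43-fold with MEL-18 WT (log2 fold change 0.52 ± 0.06 SE, edgeR adjusted p = 4.98e-08) and 1.82-fold with MEL-18 T334A (0.86 ± 0.05, adjusted p = 7.37e-13), and MEL-18 T334A stood above MEL-18 WT (0.34 ± 0.05, adjusted p = 4.01e-06). These calls held under all 19 alternatives, with log2 fold changes of 0.50 to 0.64, 0.84 to 0.90 and 0.22 to 0.37. The median log2 fold change of the neighbours of SMARCD3 on chromosome 7, the up to 20 tested genes on each side, was -0.12, -0.01 and 0.14 in the same comparisons.

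SMARCD3 has paralogs, SMARCD1 and SMARCD2, that can take its place in the complex, and neither was called in any comparison. SMARCD1 stood at 83.8 ± 1.98 CPM with the vector, 83.8 ± 2.58 with MEL-18 WT and 83.1 ± 0.65 with MEL-18 T334A (log2 fold changes against the vector of 0.00 ± 0.03 and -0.01 ± 0.03), and SMARCD2 at 93.9 ± 0.59, 93.3 ± 1.09 and 91.2 ± 1.14 CPM. Per kilobase of exon, SMARCD3 was the lowest of the 3 with the vector, at 4.82 CPM per kb against 22.6 for SMARCD1 and 32.2 for SMARCD2, and it reached 8.77 CPM per kb with MEL-18 T334A. The ratio of SMARCD3 to SMARCD2 counts was 0.130 ± 0.005 with the vector, 0.188 ± 0.007 with MEL-18 WT and 0.244 ± 0.004 with MEL-18 T334A (SD, n = 3). The ranges of this ratio did not overlap between groups, and an exact permutation test of 3 libraries against 3 cannot give a two-sided p below 0.10.

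The scaffold subunit SMARCC1 rose by 0.09 ± 0.03 with MEL-18 WT and by 0.19 ± 0.03 with MEL-18 T334A on the log2 scale, from 203 ± 3.51 CPM with the vector to 215 ± 5.80 and 231.2 ± 5.73 CPM. Its neighbours on chromosome 3 had medians of 0.06 and 0.14, and neither call was kept after subtraction of their shift (0.03 and 0.06, adjusted p = 0.580 and 0.122). The MEL-18 WT call of SMARCC1 was also lost without empty vector replicate 2 (adjusted p = 0.0737) or 3 (0.0967) or MEL-18 WT replicate 2 (0.0792) or 3 (0.138). SMARCC2, its paralog, was higher in MEL-18 T334A than in MEL-18 WT (0.08 ± 0.03, adjusted p = 0.0182), but not with no filter (0.0611) or without MEL-18 WT replicate 1 (0.0582) or 2 (0.0563) or MEL-18 T334A replicate 1 (0.0574). SMARCB1 was called with MEL-18 WT alone (0.10 ± 0.04, adjusted p = 0.0446), which did not pass with the replicate number as a term (adjusted p = 0.0656), by DESeq2 (0.0979), after removal of the neighbour shift (0.0761), or without empty vector replicate 2 (0.0988) or 3 (0.275) or MEL-18 WT replicate 1 (0.0966) or 2 (0.155). SMARCE1, SMARCD1 and SMARCD2 were not called.

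The ARID subunits define the form of the complex: ARID1A and ARID1B are alternative subunits of canonical BAF, and ARID2 belongs to PBAF. All 3 were called lower in MEL-18 T334A cells than with the vector, where 22.5% of all tested genes were lower and 45.9% were called. The call of ARID2 was lost under some alternatives, given below. Among all 12 SWI/SNF subunits, 2 were higher and 4 lower in that comparison. With MEL-18 WT against the vector, 4 of the 12 were higher and 1 lower, and between the MEL-18 groups 3 were higher and 3 lower. Of all tested genes, 28.8% and 40.9% were called in these last comparisons. ARID1B stood at 55.6, 60.7 and 58.4 CPM with the vector, 55.3, 53.9 and 55.7 CPM in MEL-18 WT cells and 47.7, 46.0 and 42.1 CPM with MEL-18 T334A. The MEL-18 T334A libraries lay below all others, and the vector and MEL-18 WT libraries overlapped. The log2 fold change of ARID1B was -0.36 ± 0.04 against the vector (edgeR adjusted p = 7.00e-08) and -0.28 ± 0.04 against MEL-18 WT (adjusted p = 5.53e-06), with neighbours on chromosome 6 at -0.05 and -0.09. Both calls held under all 19 alternatives.

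ARID1A averaged 163 ± 5.47 CPM in the vector group, 166 ± 5.17 CPM in MEL-18 WT cells and 146 ± 2.64 CPM in MEL-18 T334A cells. In the latter it was lower by 0.16 ± 0.03 and 0.18 ± 0.03 on the log2 scale than with the vector and with MEL-18 WT. Its neighbours on chromosome 1 had medians of 0.03 and 0.02, and both calls held under all 19 alternatives. Per kilobase of exon, ARID1A exceeded ARID1B in every group, at 16.8 against 4.75 CPM per kb with the vector and 15.1 against 3.70 with MEL-18 T334A. The ratio of ARID1B to ARID1A counts was 0.348 to 0.366 with the vector and 0.289 to 0.320 with MEL-18 T334A. ARID2 was lower by 0.11 ± 0.04 with MEL-18 WT (adjusted p = 0.0302) and by 0.12 ± 0.04 with MEL-18 T334A (adjusted p = 0.0113), and both calls were lost with library totals alone (adjusted p = 0.0816 and 0.0830) and with the neighbour shift taken out (0.104 and 0.287). The MEL-18 WT call of ARID2 was lost without any single library of the 6 compared (adjusted p from 0.0547 to 0.127), and the MEL-18 T334A call without MEL-18 T334A replicate 2 (0.146).

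The ATPases differed from each other. SMARCA4, the more abundant per kilobase of exon (33.3 CPM per kb with the vector, against 8.36 for SMARCA2), was not called in any comparison. It stood at 235, 244 and 237 CPM in the vector libraries, 238, 237 and 230 CPM with MEL-18 WT and 222, 232 and 228 CPM with MEL-18 T334A. The MEL-18 WT libraries overlapped both other groups. All MEL-18 T334A libraries lay below the vector libraries, but the log2 fold change of -0.07 did not pass the test. SMARCA2 stood at 116, 117 and 117 CPM with the vector, 123, 126 and 127 CPM with MEL-18 WT and 106, 104 and 99.4 CPM with MEL-18 T334A. Its 3 groups did not overlap, with MEL-18 WT highest and MEL-18 T334A lowest. The log2 fold change of SMARCA2 was 0.10 ± 0.03 with MEL-18 WT and -0.18 ± 0.03 with MEL-18 T334A against the vector, and -0.28 ± 0.03 between the MEL-18 groups (edgeR adjusted p = 3.49e-08). Its neighbours at the end of the short arm of chromosome 9 had medians of 0.13, -0.21 and -0.31 in these comparisons. After subtraction of the neighbour shift, SMARCA2 was not called in any of them (-0.05, -0.02 and 0.03, adjusted p = 0.235, 0.628 and 0.463).

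**Figure D2:**
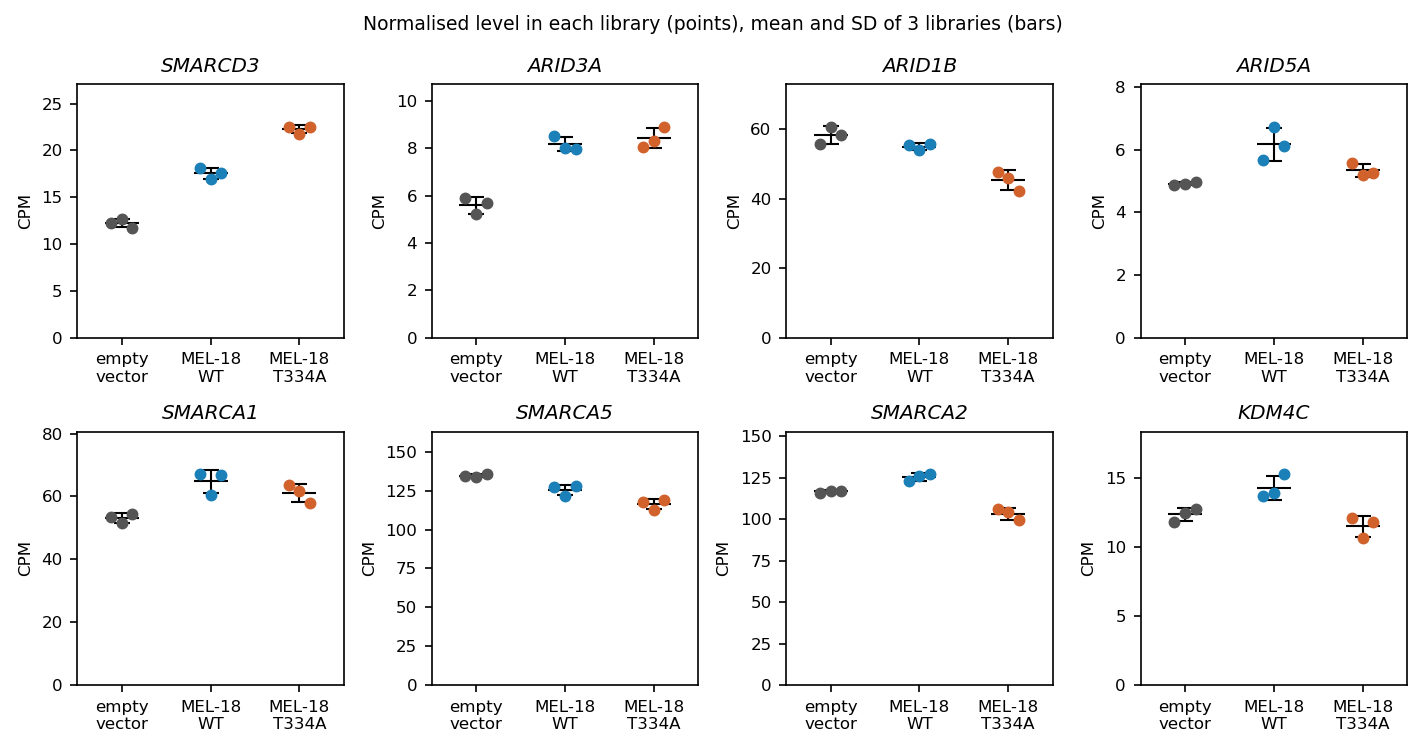
Normalised level in CPM (vertical axes, starting at 0) of 8 genes in each library of the 3 groups, with a bar for the mean and whiskers for the SD of 3 libraries. SMARCD3 steps up from 12.2 to 17.6 and 22.3 CPM over the 3 groups, ARID1B is lowest in MEL-18 T334A, and SMARCA1 and SMARCA5 move in opposite directions.

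Of 17 other SWI/SNF subunit genes that were tested, 8, 7 and 8 were called with MEL-18 WT, with MEL-18 T334A and between the MEL-18 groups, with a median log2 fold change of -0.03, -0.02 and -0.02. That is 47.1%, 41.2% and 47.1%, beside 28.8%, 45.9% and 40.9% of all tested genes. With MEL-18 WT, 3 were higher and 5 lower, with MEL-18 T334A 3 were higher and 4 lower, and between the MEL-18 groups 3 were higher and 5 lower. The largest change was in BCL11A, a zinc finger subunit that is also a transcription factor, which stood at 1.84 ± 0.22 CPM with the vector, 3.32 ± 0.25 with MEL-18 WT and 1.60 ± 0.20 with MEL-18 T334A (-1.05 ± 0.14 in MEL-18 T334A against MEL-18 WT on the log2 scale, edgeR adjusted p = 8.06e-07). ACTL6A, the actin-related BAF53a, fell by 0.28 ± 0.03 with MEL-18 T334A beside neighbours at -0.23, while BRD9, the bromodomain subunit of non-canonical BAF, rose by 0.20 ± 0.03 beside neighbours at 0.04.

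ISWI remodelers space nucleosomes, and SMARCA5 (SNF2H) and SMARCA1 (SNF2L) are their alternative ATPases. Both were called against the vector in both MEL-18 lines, in opposite directions, and were singled out for values by library after these were seen. SMARCA1 stood at 53.6, 51.4 and 54.4 CPM with the vector, 67.1, 60.5 and 66.8 CPM with MEL-18 WT and 63.6, 61.8 and 57.8 CPM with MEL-18 T334A. All libraries of both MEL-18 groups lay above the vector libraries, and the MEL-18 groups overlapped. SMARCA1 rose by 0.29 ± 0.04 with MEL-18 WT (edgeR adjusted p = 6.24e-06) and by 0.20 ± 0.04 with MEL-18 T334A (adjusted p = 3.28e-04), beside neighbours on chromosome X at -0.01 and -0.05, and both calls held under all 19 alternatives.

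SMARCA5 stood at 135, 134 and 136 CPM with the vector, 127, 122 and 128 CPM with MEL-18 WT and 118, 113 and 119 CPM with MEL-18 T334A. No groups overlapped, with the vector highest. Its log2 fold change was -0.10 ± 0.03 with MEL-18 WT (edgeR adjusted p = 0.0138) and -0.21 ± 0.03 with MEL-18 T334A (adjusted p = 3.36e-06), beside neighbours on chromosome 4 at -0.00 and -0.12. The MEL-18 WT call was lost without MEL-18 WT replicate 2 (adjusted p = 0.122), without empty vector replicate 3 (0.0637) and with the neighbour shift taken out (0.0521), and the last step reduced the MEL-18 T334A value to -0.09 (adjusted p = 0.0236). The ratio of SMARCA1 to SMARCA5 counts was 0.384 to 0.401 in the vector libraries, 0.496 to 0.528 with MEL-18 WT and 0.485 to 0.548 with MEL-18 T334A. Neither MEL-18 group overlapped the vector in this ratio, for which the smallest two-sided p of an exact permutation test is 0.10.

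The antisense gene SMARCA5-AS1 had 0 or 1 counts in each library and was not tested. Of 11 genes for partners of ISWI ATPases, 2 were lower with MEL-18 WT and 4 with MEL-18 T334A, with 0 higher in both cases, and between the MEL-18 groups 2 were higher and 2 lower. That is 18.2%, 36.4% and 36.4% called, beside 28.8%, 45.9% and 40.9% of all tested genes. They included BAZ1B, the WSTF subunit, at -0.24 ± 0.03 with MEL-18 WT beside neighbours at -0.14, and CHRAC1 at -0.21 ± 0.04 with MEL-18 T334A beside neighbours at 0.04. Of the other SNF2 ATPases, SMARCAD1, a remodeler linked to heterochromatin and DNA end resection, fell by 0.13 ± 0.03 with MEL-18 T334A (adjusted p = 7.34e-04), and SMARCAL1, which remodels stalled replication forks, was not called. Of 15 CHD and related remodeler genes, 3 were higher and 4 lower with MEL-18 WT and 2 were higher and 6 lower with MEL-18 T334A. Between the MEL-18 groups 0 were higher and 4 lower. The shares called were 46.7%, 53.3% and 26.7%, beside 28.8%, 45.9% and 40.9% of all tested genes. CHD9 was lower by 0.31 ± 0.03 with MEL-18 T334A beside neighbours at -0.07, and CHD7, a remodeler of enhancers in development, was higher by 0.17 ± 0.04 and 0.20 ± 0.04.

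The COMPASS enzymes KMT2A to KMT2D, SETD1A and SETD1B, which methylate lysine 4 of histone H3, changed by at most 0.18 on the log2 scale. Of these 6, 1 was lower with MEL-18 WT and 3 with MEL-18 T334A, with 0 higher in either, and 3 were lower in MEL-18 T334A than in MEL-18 WT. The shares called were 16.7%, 50% and 50%, beside 28.8%, 45.9% and 40.9% of all tested genes. KMT2C, which marks enhancers, stood at 144, 152 and 155 CPM with the vector, 134, 133 and 132 CPM with MEL-18 WT and 146, 136 and 135 CPM with MEL-18 T334A. The MEL-18 WT libraries lay below the vector libraries (log2 fold change -0.18 ± 0.03, edgeR adjusted p = 1.14e-04), and MEL-18 T334A overlapped the vector (-0.12 ± 0.03, adjusted p = 0.00516). Its neighbours on chromosome 7 had medians of -0.14 and -0.01, and the MEL-18 WT call was lost with their shift taken out (-0.05, adjusted p = 0.271). The MEL-18 T334A call of KMT2C was lost with library totals alone (adjusted p = 0.0681) and without empty vector replicate 3 (0.0571).

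KMT2D, the paralog of KMT2C, stood at 244, 260 and 247 CPM with the vector, 250, 253 and 252 CPM with MEL-18 WT and 242, 232 and 225 CPM with MEL-18 T334A, whose libraries lay below all others. It was lower with MEL-18 T334A by 0.10 ± 0.03 than with the vector and by 0.11 ± 0.03 than with MEL-18 WT, where the former call was lost with library totals alone (adjusted p = 0.0888) and without empty vector replicate 2 (0.0966). SETD1A, a promoter H3K4 methyltransferase, was lower in MEL-18 T334A than with the vector (-0.14 ± 0.03, adjusted p = 0.00106), but not after removal of the neighbour shift (adjusted p = 0.121). KMT2A, the mixed-lineage leukemia gene, stood at 307, 327 and 325 CPM with the vector, 326, 324 and 332 CPM with MEL-18 WT and 318, 301 and 304 CPM with MEL-18 T334A, with MEL-18 T334A below MEL-18 WT and overlapping the vector, and was called only between the MEL-18 groups (-0.09 ± 0.03, adjusted p = 0.0167). KMT2A did not pass there with library totals alone (adjusted p = 0.0579), after removal of the neighbour shift (0.152), or without MEL-18 WT replicate 3 (0.0919) or MEL-18 T334A replicate 2 (0.0894). KMT2B stood at 99.9, 107 and 102 CPM with the vector, 102, 99.5 and 98.8 CPM with MEL-18 WT and 98.6, 98.8 and 99.4 CPM with MEL-18 T334A, a range of 98.6 to 107 CPM over all libraries, and neither it nor SETD1B was called. With the neighbour shift taken out, KMT2A, KMT2B and SETD1B were called lower in MEL-18 T334A than with the vector (-0.10, -0.08 and -0.10, adjusted p = 0.0123, 0.0354 and 0.0406). As reported, KMT2A stood at -0.06 and SETD1B at -0.07 there, beside neighbours at 0.05 and 0.05.

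Of 13 genes for partners of these enzymes, 1 was higher and 4 lower with MEL-18 WT, and 4 were higher and 3 lower with MEL-18 T334A and between the MEL-18 groups, or 38.5%, 53.8% and 53.8% called beside 28.8%, 45.9% and 40.9% of all tested genes. ASH2L, a core subunit of all COMPASS-type complexes, stood at 48.2 ± 0.80 CPM with the vector, 41.2 ± 0.67 with MEL-18 WT and 56.9 ± 2.53 with MEL-18 T334A, beside neighbours on chromosome 8 at -0.20 and 0.15. DPY30, another core subunit, was lower by 0.18 ± 0.04 and 0.25 ± 0.04 beside neighbours at -0.12 and -0.26. The chromatin reader PSIP1, which tethers KMT2A, was lower with MEL-18 T334A by 0.20 ± 0.03 beside neighbours at -0.14.

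Among the other SET domain genes, KMT2E, a SET domain protein without established methyltransferase activity, changed most. It was lower with MEL-18 WT by 0.25 ± 0.04 than with the vector (62.2 ± 2.27 against 74.0 ± 0.52 CPM, edgeR adjusted p = 1.10e-05) and was not called with MEL-18 T334A (-0.03 ± 0.04), with neighbours on chromosome 7 at -0.14 and 0.04. The value for MEL-18 WT was -0.11 (adjusted p = 0.0328) with the neighbours' shift taken out. Counts of its antisense partner KMT2E-AS1 were low, at 1.58 ± 0.34 CPM with the vector, and were not called. SETD5 was higher by 0.12 ± 0.03 and 0.11 ± 0.03 in the MEL-18 groups, and SETD2, the H3K36 methyltransferase, by 0.09 ± 0.03 with MEL-18 T334A. Both lie on chromosome 3, where their neighbours had medians of 0.13 and 0.15 with MEL-18 T334A, and neither was called there with the neighbour shift taken out (-0.02 and -0.06, adjusted p = 0.682 and 0.0937). The MEL-18 WT call of SETD5 was lost in that fit too (0.06, adjusted p = 0.142). SETD2 was also not called without empty vector replicate 2 (adjusted p = 0.0503) or MEL-18 T334A replicate 1 (0.0937). SETD7, which methylates histone H3 and many other proteins, rose by 0.08 ± 0.03 with MEL-18 WT and fell by 0.12 ± 0.03 with MEL-18 T334A.

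SETDB1, the H3K9 methyltransferase of retroelement silencing, was lower with MEL-18 WT by 0.12 ± 0.04 (adjusted p = 0.0237) beside chromosome 1 neighbours at -0.21, and stood at 0.08 with their shift taken out (adjusted p = 0.212). SETDB1 was also not called by DESeq2 (adjusted p = 0.0773), with library totals alone (0.0697), and without empty vector replicate 1 (0.0828) or 2 (0.094) or MEL-18 WT replicate 2 (0.154) or 3 (0.0562). SETDB2, SETD3, which methylates actin, SETD4, SETD6 and SETD9 were not called in any comparison as reported, nor was the H4K20 methyltransferase SETD8, which stood at 73.0 ± 1.65 CPM with the vector, 73.1 ± 0.53 with MEL-18 WT and 72.3 ± 3.67 with MEL-18 T334A. Of 16 further histone methyltransferase genes, 3 were higher and 3 lower with MEL-18 WT, 1 was higher and 4 lower with MEL-18 T334A, and 4 were higher and 4 lower between the MEL-18 groups. The shares called were 37.5%, 31.2% and 50%, beside 28.8%, 45.9% and 40.9% of all tested genes. WHSC1L1 (NSD3) was lower with MEL-18 WT by 0.30 ± 0.03 beside chromosome 8 neighbours at -0.18, and SMYD2 was higher with MEL-18 T334A by 0.30 ± 0.03 beside chromosome 1 neighbours at 0.16.

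Of the 17 KDM demethylase genes tested, 3 rose and 1 fell in each comparison with the vector, and 2 were higher and 4 lower between the MEL-18 groups. The shares called were 23.5%, 23.5% and 35.3%, beside 28.8%, 45.9% and 40.9% of all tested genes. KDM1B (LSD2), which removes H3K4 methylation in gene bodies, stood at 30.2, 31.4 and 34.4 CPM with the vector, 35.9, 36.9 and 37.2 CPM with MEL-18 WT and 37.0, 37.1 and 37.1 CPM with MEL-18 T334A. It was singled out for these values after they were seen. All MEL-18 libraries lay above the vector libraries, by 0.20 ± 0.04 with MEL-18 WT (edgeR adjusted p = 9.39e-04) and 0.21 ± 0.04 with MEL-18 T334A (adjusted p = 2.29e-04), and both calls held under all 19 alternatives. The neighbours of KDM1B on chromosome 6 had medians of 0.00 and 0.13, and the MEL-18 T334A value was 0.13 with their shift taken out (adjusted p = 0.0233). KDM1A (LSD1), its paralog in the CoREST complex, had the highest level per kilobase of exon among the 58 tested genes described here, 48.3 CPM per kb. KDM1A was not called, with log2 fold changes of 0.01 ± 0.03 and 0.04 ± 0.03 against the vector.

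Of 11 genes for CoREST partners of KDM1A, 1 was higher with MEL-18 WT, 2 were higher and 1 lower with MEL-18 T334A, and 4 were higher and 1 lower between the MEL-18 groups. The shares called were 9.09%, 27.3% and 45.5%, beside 28.8%, 45.9% and 40.9% of all tested genes. RCOR2, a CoREST scaffold, had 14, 16 and 14 counts with the vector, 32, 25 and 32 with MEL-18 WT and 41, 39 and 30 with MEL-18 T334A. Its counts were few but all MEL-18 libraries lay above the vector libraries, with log2 fold changes of 0.90 ± 0.26 and 1.24 ± 0.25 (edgeR adjusted p = 0.00944 and 1.67e-04). RCOR3 was higher with MEL-18 T334A by 0.26 ± 0.04 beside chromosome 1 neighbours at 0.17.

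KDM2B, the H3K36 demethylase of variant PRC1, stood at 59.7, 62.9 and 58.1 CPM with the vector, 64.7, 66.9 and 64.7 CPM with MEL-18 WT and 63.5, 66.3 and 65.2 CPM with MEL-18 T334A. All MEL-18 libraries lay above the vector libraries, by 0.12 ± 0.04 (edgeR adjusted p = 0.0113) and 0.11 ± 0.04 (adjusted p = 0.0127). Both calls of KDM2B were lost without empty vector replicate 3 (adjusted p = 0.0692 and 0.0672), and the MEL-18 WT call without MEL-18 WT replicate 2 (0.0612). Its paralog KDM2A was not called. In MEL-18 T334A it stood at -0.03 ± 0.03 against the vector and -0.06 ± 0.03 against MEL-18 WT, with overlapping libraries. Its neighbours on chromosome 11 had medians of 0.14 and 0.10. With their shift taken out the values were -0.18 (adjusted p = 2.35e-05) and -0.15 (adjusted p = 3.2e-04). Most of that size is the subtracted shift, whose error the p-values leave out.

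The KDM6 enzymes remove the H3K27 methylation that PRC2 places. KDM6A stood at 28.3, 24.8 and 26.7 CPM with the vector, 23.9, 23.5 and 26.4 CPM with MEL-18 WT and 23.1, 22.6 and 21.1 CPM with MEL-18 T334A. The MEL-18 T334A libraries were below all others, and the other groups overlapped. KDM6A was lower with MEL-18 T334A by 0.26 ± 0.05 than with the vector (edgeR adjusted p = 3.52e-04) and by 0.14 ± 0.05 than with MEL-18 WT (adjusted p = 0.0370), beside neighbours on chromosome X at -0.11 and -0.07. The former value of KDM6A was -0.16 (adjusted p = 0.0205) with the neighbours' shift taken out, and the latter did not pass under 7 alternatives: DESeq2 (adjusted p = 0.0994), library totals (0.0749), thinned counts (0.101), removal of the neighbour shift (0.273), and without MEL-18 WT replicate 3 (0.248) or MEL-18 T334A replicate 2 (0.0595) or 3 (0.132). KDM6B, induced in inflammation, stood at 14.1, 14.7 and 12.7 CPM with the vector, 14.8, 14.2 and 13.4 CPM with MEL-18 WT and 13.5, 13.7 and 12.04 CPM with MEL-18 T334A, groups that overlapped, and was not called.

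The KDM5 enzymes remove H3K4 methylation. KDM5B stood at 75.4, 79.4 and 80.6 CPM with the vector, 79.3, 77.9 and 79.7 CPM with MEL-18 WT and 88.2, 86.3 and 79.7 CPM with MEL-18 T334A. It was called higher with MEL-18 T334A (0.11 ± 0.04, edgeR adjusted p = 0.0147) although its libraries overlapped the vector libraries, and its chromosome 1 neighbours stood at 0.21. With their shift taken out the value of KDM5B was -0.08 (adjusted p = 0.0875), and it was not called without empty vector replicate 1 (0.0828) or MEL-18 T334A replicate 1 (0.0832). KDM5A was lower with MEL-18 WT by 0.09 ± 0.03 (adjusted p = 0.0387), but not by DESeq2 (adjusted p = 0.0774), with library totals (0.124), with no filter (0.0723), with thinned counts (0.108) or without any single library of the 6 compared (0.0612 to 0.127). KDM5A was higher in MEL-18 T334A than in MEL-18 WT (0.13 ± 0.03, edgeR adjusted p = 0.00211), lost only with the neighbour shift taken out (0.05, 0.234). KDM5B was higher there too (0.10 ± 0.04, adjusted p = 0.027). That call was lost by DESeq2 (0.0577), with the neighbour shift taken out (0.936), and without MEL-18 WT replicate 1 (0.0573) or 2 (0.0899) or MEL-18 T334A replicate 1 (0.141) or 2 (0.0906). KDM5C was not called.

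KDM4C, a demethylase of H3K9 and H3K36, stood at 11.8, 12.5 and 12.8 CPM with the vector, 13.7, 13.9 and 15.3 CPM with MEL-18 WT and 12.1, 10.6 and 11.8 CPM with MEL-18 T334A. The MEL-18 WT libraries lay above all others. KDM4C differed by -0.31 ± 0.06 on the log2 scale in MEL-18 T334A against MEL-18 WT (edgeR adjusted p = 3.30e-04) beside neighbours at -0.25, and with their shift taken out it was -0.04 (adjusted p = 0.653). KDM4C lies on chromosome 9, as does SMARCA2. KDM4C passed with MEL-18 WT against the vector (0.21 ± 0.06, adjusted p = 0.0159), but not by DESeq2 (adjusted p = 0.0744), without empty vector replicate 1 (0.0745), without MEL-18 WT replicate 3 (0.103) and with the neighbour shift taken out (0.193). KDM4A and KDM3A were lower in MEL-18 T334A than in MEL-18 WT by 0.12 ± 0.04 and 0.10 ± 0.03, but neither passed by DESeq2 (adjusted p = 0.0623 and 0.0689), with library totals alone (0.0638 and 0.0829) or with the neighbour shift taken out (0.196 and 0.233). KDM4A was not called there without MEL-18 WT replicate 1 (0.104) or 2 (0.0544) or MEL-18 T334A replicate 3 (0.166), and KDM3A without any of 5 libraries, all but MEL-18 T334A replicate 3 (0.056 to 0.124). KDM4B, KDM3B, KDM7A and KDM8 were not called, but with the neighbour shift taken out KDM7A was higher with MEL-18 WT than with the vector (0.27, adjusted p = 0.00961, against 0.11 as reported). KDM4D was low, at 1.71 ± 0.04, 1.31 ± 0.07 and 1.40 ± 0.33 CPM, and was not called as reported. It was called lower with MEL-18 WT with the neighbour shift taken out (-0.48, adjusted p = 0.0474, against -0.39 as reported). KDM4E had 1 count in MEL-18 T334A replicate 1 and none in the other libraries, and was not tested.

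The remaining ARID proteins bind DNA outside SWI/SNF. ARID3A, a transcription factor first known from B cells, stood at 5.89, 5.20 and 5.70 CPM with the vector, 8.50, 8.01 and 7.97 CPM with MEL-18 WT and 8.07, 8.32 and 8.91 CPM with MEL-18 T334A. All MEL-18 libraries lay above the vector libraries, and the MEL-18 groups overlapped. ARID3A rose 1.46-fold with MEL-18 WT (log2 fold change 0.54 ± 0.08, edgeR adjusted p = 7.70e-06) and 1.51-fold with MEL-18 T334A (0.59 ± 0.08, adjusted p = 1.06e-06), beside neighbours on chromosome 19 at 0.02 and -0.01, and both calls held under all 19 alternatives. Its paralog ARID3B was not called (0.07 ± 0.06 and 0.06 ± 0.06), and ARID3C, with 2 to 11 counts a library, was not tested.

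ARID5A, an RNA-binding protein that stabilises inflammatory messages, stood at 4.88, 4.91 and 4.97 CPM with the vector, 5.68, 6.73 and 6.11 CPM with MEL-18 WT and 5.59, 5.21 and 5.24 CPM with MEL-18 T334A. The MEL-18 WT libraries were above all others. It was called with MEL-18 WT (0.33 ± 0.09, edgeR adjusted p = 0.00655), but not without MEL-18 WT replicate 2 (0.26, adjusted p = 0.0584), and not with MEL-18 T334A (0.12 ± 0.09, adjusted p = 0.318). The difference between the MEL-18 groups in ARID5A did not pass the test (-0.21 ± 0.09, adjusted p = 0.0565). ARID5B and ARID4B were higher in MEL-18 T334A than in MEL-18 WT by 0.19 ± 0.05 and 0.14 ± 0.04, beside neighbours at 0.13 and 0.13, and neither was called with the neighbour shift taken out (adjusted p = 0.410 and 0.516). ARID5B was not called without MEL-18 WT replicate 2 (0.0603). ARID4A was not called.

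The genes were set against their neighbours on the chromosome. Of the called genes, 15 of 18 with MEL-18 WT, 16 of 21 with MEL-18 T334A and 20 of 22 between the MEL-18 groups had the same sign as the median of their neighbours, beside 74.2%, 68.5% and 77.4% of all called genes with neighbours. That median was also at least 0.1 in size for 4, 9 and 8 of them, and for 25.7%, 26.3% and 33.2% of all called genes. Across the 58 genes, Pearson's r between a gene's log2 fold change and that median was 0.16, 0.31 and 0.72 (Spearman's rho 0.38, 0.44 and 0.59). These are descriptions across genes, which share the same libraries and are not independent replicates. After subtraction of the neighbour shift, the numbers of genes higher and lower were 7 and 3 with MEL-18 WT, 6 and 11 with MEL-18 T334A, and 3 and 7 between the MEL-18 groups. These include calls that the fit without that step did not make, among them SETD3 (0.13, adjusted p = 0.0026) and SETD5 (-0.07, adjusted p = 0.0405) between the MEL-18 groups and SMARCC2 with MEL-18 T334A against the vector (0.09, adjusted p = 0.0135). As reported, SETD3 and SMARCC2 stood at 0.05 and 0.05 there, so part of their size is the subtracted shift. In that fit 21.3%, 38.6% and 30.1% of all tested genes were called, beside 28.8%, 45.9% and 40.9% as reported. What moved whole neighbourhoods was not tested.

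**Figure D3:**
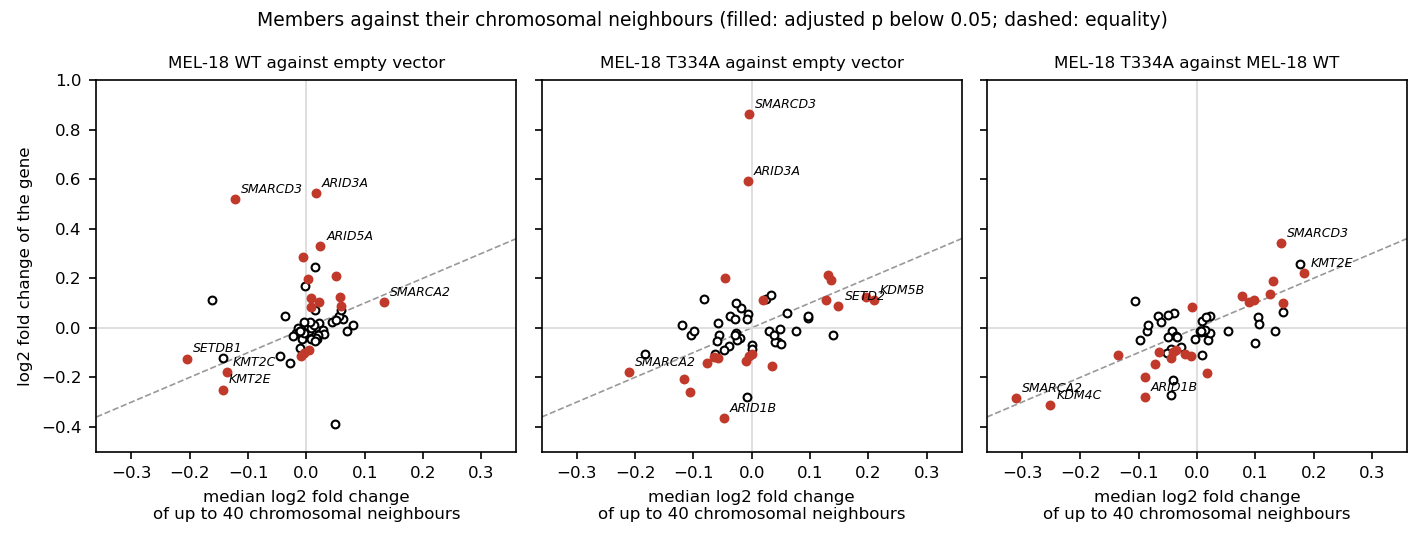
Log2 fold change of each of the 58 tested genes (vertical) against the median log2 fold change of its chromosomal neighbours (horizontal) in the 3 comparisons, with filled points for genes called at an adjusted p below 0.05 and a dashed line where both are equal. SMARCD3 and ARID3A stand well above the line against the vector, and SMARCA2 at -0.28 and KDM4C at -0.31 lie near it between the MEL-18 groups.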

How the data were processed

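For each of 9 libraries the authors deposited unnormalized read counts, 1 whole number per gene symbol. Per the submitters' processing notes they worked on hg19 with featureCounts (Subread 1.5.3), STAR 2.5.3a and CASAVA 1.8. Which annotation and strand setting served for counting is not given in the sources used here, so antisense genes and close paralogs are uncertain.

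Genes passing edgeR's filterByExpr (14738 of 26364) were scaled by TMM (factors 0.979 to 1.02) and tested with edgeR 4.0.16 (R 4.3.3) in a model of group means over the 9 libraries (quasi-likelihood test, two-sided), and adjusted by Benjamini-Hochberg. The SE given is the log2 fold change divided by the root of F, without sign. The common biological coefficient of variation was 2.57%. The fit was run on simulated counts with the same spread for all genes and groups. Replicate noise in the data was unequal, so that run does not measure the error of the fit here. CPM per kb uses the exon union of GENCODE 29, another annotation than that of the counts, and is approximate. Neighbours were placed by RefSeq symbols on GRCh38.p14 (14423 of 14738 genes placed), and their median shift entered 1 alternative fit as an offset taken as known, so those p-values leave out its error. The 19 alternatives were DESeq2 1.42.0, RLE factors, library totals, 2 filters, a replicate term, limma 3.58.1 voom, thinned counts, the neighbour shift, the compared groups alone, and each of 9 libraries left out. The genes given by library were those called with an absolute log2 fold change of at least 0.3 and 10 fixed ones, and from each partner list up to 3 called genes with the largest change were eligible. Others are marked as chosen later. Members and lists were chosen with earlier results of these data known.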

Additional observations from a re-analysis of the deposited data

Results flagged for a closer look

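SETD7 and SMARCA2 were called in opposite directions against the vector in the MEL-18 lines and differed between them. SETD7 was lower in MEL-18 T334A than in MEL-18 WT by a log2 fold change of -0.20 ± 0.03 (edgeR adjusted p = 4.29e-06), at 152 ± 3.93 against 175 ± 1.55 CPM, and with 165 ± 3.90 CPM for the vector. Its call with MEL-18 WT against the vector did not pass without any of 5 of the 6 libraries compared, all but empty vector replicate 1 (adjusted p from 0.0659 to 0.107), by DESeq2 (0.0504) or after removal of the neighbour shift (0.0828). Its call with MEL-18 T334A against the vector did not pass after that removal either, while the difference between the MEL-18 groups was -0.13 (adjusted p = 9.49e-04) after that last step. SMARCA2 was lower in MEL-18 T334A than in MEL-18 WT by a log2 fold change of -0.28 ± 0.03 (adjusted p = 3.49e-08), and its value without the neighbour shift was 0.03 (adjusted p = 0.463).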

How the results depend on the processing

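Counts are of genes called higher and lower, in the order MEL-18 WT against vector, MEL-18 T334A against vector, MEL-18 T334A against MEL-18 WT. As reported they were 12 and 6, 10 and 11, and 9 and 13, with 30, 35 and 38 partner genes called. DESeq2 left 3 lower in the first, and library totals alone left 3 lower in the first and 8 lower in the last. With the neighbour shift taken out they were 7 and 3, 6 and 11, and 3 and 7, with 16 partner genes in the first and 24 in the last. Leaving out 1 library gave 7 to 12 and 2 to 7, 7 to 10 and 10 to 13, and 5 to 10 and 9 to 13, with 22 to 30, 29 to 38 and 30 to 38 partner genes. Calls over all genes changed too, from 28.8%, 45.9% and 40.9% as reported. They were 20.8%, 35.2% and 30.9% by DESeq2 and 28.7%, 44.8% and 40% with library totals. With the neighbour shift taken out they were 21.3%, 38.6% and 30.1%. Without 1 library they ran from 23% to 31.3%, 39.2% to 46% and 33.3% to 42.4%. Replicate numbers did not pair the samples (same-number correlations -0.0791 to 0.0137), and with a replicate block the counts were 11 and 6, 10 and 11, and 9 and 13.

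Direction reversed only with the neighbour shift taken out, whose own construction subtracts that shift. With MEL-18 WT against the vector the log2 fold changes were then 0.0754 for SETDB1, -0.0534 for SMARCA2, 0.0259 for ACTB, 0.0436 for CHD1L and 0.000771 for ACTL6A. With MEL-18 T334A against the vector they were -0.0798 for KDM5B, -0.0531 for ARID4B, -0.0161 for SETD5, -0.0634 for SETD2, 0.0174 for DPY30, -0.130 for WDR5, -0.121 for WHSC1L1 and -0.00538 for JMJD1C. Between the MEL-18 groups the values were -0.00506 for KDM5B, 0.0322 for SMARCA2, -0.123 for ACTB, -0.0630 for WDR5, -0.0252 for BAZ1B, -0.0906 for POLE3, -0.117 for ASH1L, -0.00546 for EHMT1 and -0.00149 for JMJD1C. The cause of the other changes was not tested. Genes near 1 CPM, such as KDM4D and RCOR2, had SEs of 0.17 or more, so small changes in them were not detectable at this depth.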
